A study of Homo sapiens with 114 samples.

Results

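HK-2 cells exposed to the low dose of Ota for 72 h were compared with HK-2 cells that received vehicle for the same time. HK-2 is an immortalised line of human renal proximal tubular epithelium. Members were chosen by the array labels alone, as the 3 arrays labelled Ota-ld-t72h and the 3 labelled Ota-hd_and_ld-t72h_ctrl, which makes 6 arrays beside 108 others in the series. The labels call the replicates biological and do not say how the cultures were separated. The p-values therefore measure the spread between such replicate cultures, estimated over all 18 Ota arrays. All cultures grew in a defined medium with EGF, hydrocortisone, insulin and transferrin, and exposure started near confluence. Doses are given only as high or low, Ota appears as the labels spell it, and the vehicle is not named. For comparison, 3 further groups of 3 arrays were used, namely the low dose at 24 h (Ota-ld-t24h) with its own vehicle control (Ota-hd_and_ld-t24h_ctrl), and the high dose at 72 h (Ota-hd-t72h), which shares its 3 control arrays with the low dose. The high dose at 24 h (Ota-hd-t24h, 3 arrays) is compared with nothing here, but its arrays enter the fit of 18 arrays that sets every standard error. The question was which genes a lower exposure changes in these cells after the longer time.

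Proximal tubule cells reabsorb most filtered solutes through transporters of the apical brush border and the basolateral membrane, and a confluent layer divides little. Entry into S phase is driven by E2F factors, which cyclin E with CDK2 helps release from the retinoblastoma protein, and which switch on genes of origin licensing, nucleotide supply and DNA synthesis. The unfolded protein response raises chaperones of the endoplasmic reticulum (ER) through ATF6 and XBP1, and ATF4 raises amino acid synthesis, amino acid uptake and tRNA charging.

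Of 11138 genes tested, 1785 (16%) were called at an adjusted p under 0.05, 1003 of them higher (9.01%) and 782 lower (7.02%) than in control. A change of at least 2-fold accompanied 626 of these calls (5.62%), 356 higher (3.2%) and 270 lower (2.42%). The median change of all tested genes was -0.0004 on the log2 scale, and every change below is a difference of mean log2 levels, ± its standard error over 3 against 3 arrays. The 3 treated arrays lay wholly above the 3 controls for 2714 genes (24.4%) and wholly below for 2781 (25%). The root mean square difference between replicate arrays was 0.296 to 0.335 among treated and 0.275 to 0.329 among control arrays, against 0.432 to 0.619 among the high dose arrays of 72 h and 0.537 to 0.909 among those of 24 h. The difference between 3′ and 5′ probe sets of beta-actin, a sign of RNA integrity, was 1.34 to 1.47 in treated and 1.16 to 1.51 in control arrays, so the groups overlapped. The upper quartile of all probe sets was higher on the treated arrays (7.10 to 7.18) than on the controls (7.02 to 7.06; exact permutation test, two-sided p = 0.1, the smallest that 3 against 3 allows). The number of calls depends on which arrays estimate the spread: 3542 genes were called when only these 6 arrays were fitted, 3336 without the 6 high dose arrays, and 1066 to 1429 when 1 of the 6 was left out.

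**Figure D1:**
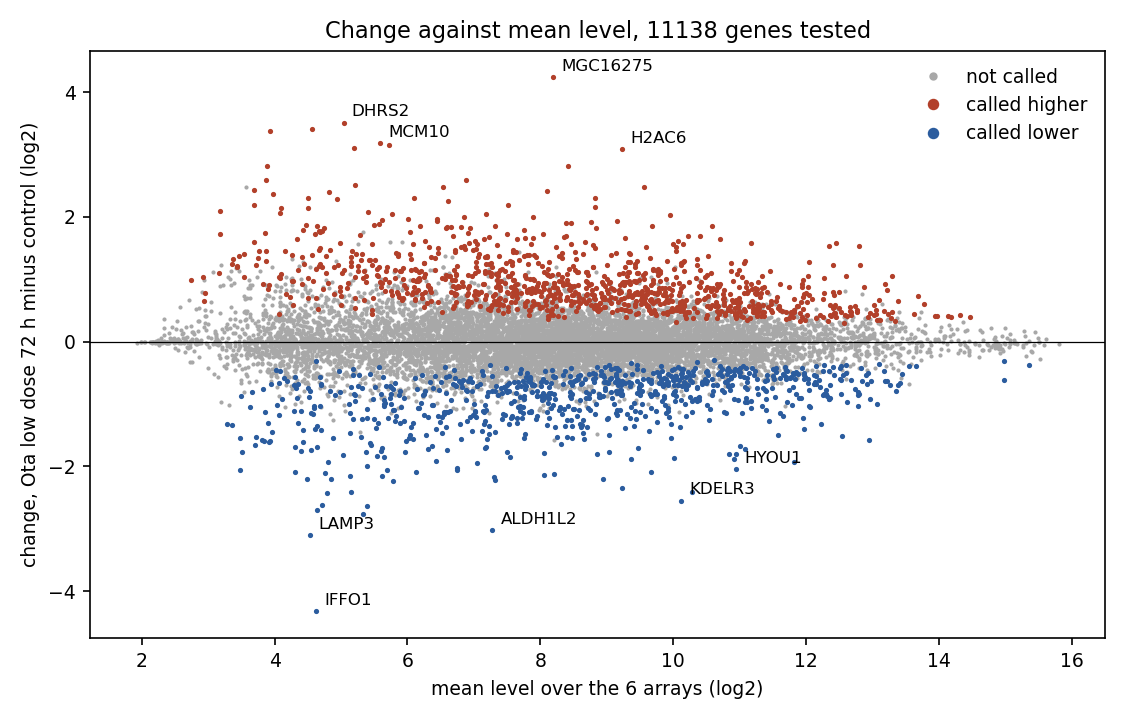
Each point is 1 of the 11138 genes tested, with its mean log2 level over the 6 arrays on the horizontal axis and its log2 change in the Ota low dose at 72 h against control on the vertical axis; colours mark the 1003 genes called higher and the 782 called lower. Calls of both directions occur among low, middle and high levels, and some of the named genes with large changes are labelled.

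The labelled cell type was checked first. Of 21 transporters and receptors of the proximal tubule, 8 passed the filter of log2 above 4 on at least 3 of 18 arrays, and 13 did not, among them the organic anion transporters SLC22A6 and SLC22A8, the phosphate transporter SLC34A1, the glucose transporter SLC5A2, the endocytic receptors LRP2 and CUBN, and the water channel AQP1. Markers that were high in both groups included the bicarbonate transporter SLC4A4 (12.63 to 12.73 in control, 12.37 to 12.79 in treated cells), the brush border peptidase DPP4 (11.89 to 12.12 and 12.17 to 12.53), the kidney cadherin CDH6 (11.53 to 12.24 and 11.64 to 12.10) and the kidney factor PAX8 (9.82 to 9.93 and 10.03 to 10.27). None of these 4 was called. Under log2 4 on all 6 arrays lay 8 of 17 brush border genes, among them ANPEP, GGT1, MME, ACE, ALPL and VIL1. So did 4 of 11 identity genes, namely PAX2, EMX2, GATA3 and LHX1. All 8 leukocyte markers in the table lay under log2 4 on all 6 arrays, as did 9 of 10 endothelial, 15 of 17 distal nephron, 7 of 9 fibroblast and 3 of 7 podocyte markers. The other 4 podocyte markers lay above it on all 6 arrays, among them PTPRO (11.13 to 11.84 in control and 11.39 to 12.44 in treated cells). The filament gene NES was the only podocyte marker called and rose by 1.03 ± 0.16 (adjusted p = 0.000569). The 2 fibroblast markers above that level were the matrix proteoglycans DCN and LUM. LUM read 7.71, 7.31 and 7.51 in control and 9.58, 9.01 and 8.99 in treated cultures, a change of 1.68 ± 0.23 (adjusted p = 0.000171). The difference for DCN was 1.00 ± 0.38 and was not called (adjusted p = 0.0935). Through these genes the summed linear level of the fibroblast list moved from 880 to 1476 in control to 1943 to 3000 in treated arrays, while COL3A1, PDGFRA, PDGFRB and THY1 stayed below log2 4 on all 6. The summed linear level of 11 kidney epithelial identity genes was 29941 to 30410 in control and 20488 to 21912 in treated arrays, while the median change of the 8 tested was -0.12. The sum of brush border genes was 10323 to 11805 in control and 12277 to 14131 in treated arrays, and that of proximal tubule transporters 9498 to 10228 and 9843 to 12663. The sodium pump subunit FXYD2, the brightest identity gene, read 13.95, 13.83 and 13.88 in control and 13.25, 13.12 and 13.25 in treated cells and was not called (-0.68 ± 0.23, adjusted p = 0.0567). Over other settings of the fit the adjusted p of FXYD2 ran from 0.00158 to 0.241. In bulk RNA a change in the number of cells of a kind and a change in RNA per cell cannot be told apart, and the part of these markers in other results was not tested.

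DNA replication genes were higher in the treated cells. Of 27 tested replication genes 23 were called higher and 1 lower, with a median change of 1.03, against 9.01% higher and 7.02% lower over all genes tested. The replication initiation factor MCM10 rose most, from 3.78, 4.16 and 4.02 in the control cultures to 7.26, 7.22 and 7.05 in the treated ones. This is a change of 3.19 ± 0.15 (adjusted p = 5.74e-09), or 9.12-fold, and the groups lay far apart. UHRF1, which carries DNA methylation marks through replication, read 8.27, 8.11 and 8.17 in control and 10.19, 10.13 and 10.04 in treated cultures (1.94 ± 0.14, adjusted p = 1.5e-06). ORC1, the large subunit of the origin recognition complex, read 5.89, 6.25 and 4.86 against 7.71, 7.75 and 7.00 (1.82 ± 0.35, adjusted p = 0.00229). All treated cultures exceeded all controls for these 3 genes. The single member called lower was the clamp loader subunit RFC4, named here for that reason after its values were seen, at 10.65, 11.03 and 10.82 in control and 9.90, 9.87 and 10.06 in treated cells (fell by 0.89, adjusted p = 0.00974). The list median was steady between cultures, at 1.03, 1.05 and 0.98 on the treated arrays relative to the control mean, and 21 to 23 members stayed called higher when any 1 array was left out.

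Promoters of the replication genes were read because these genes moved together. RefSeq sequence of GRCh38.p14 was available for 27305 promoters, and the 250 bases before each gene start were searched on both strands. Of the 2 core forms of the E2F motif, TTTGGCGC and TTTCCCGC, at least 1 occurred in 1.96% of all promoters and in 3.23% of the 9206 tested genes with a promoter. It occurred in 11 of 25 replication genes (44%), but in 2 of 25 mitosis genes and in none of 12 repair or 9 histone genes. Of those 11 replication genes 10 were called higher, beside 23 of all 27 tested replication genes. MCM10 and ORC1 were not among the 11. The motif was in 6.3% of all genes called higher and in 2.02% of genes called lower. Printed here, to show where the motif lies, are the last 150 bases before the gene start of 3 replication genes called higher, with the motif in capitals (in these 3 genes on the opposite strand, as GCGGGAAA). The first is UHRF1 at chr19:4909351-4909500 on the plus strand, the second PCNA at chr20:5126623-5126772 on the minus strand, and the third TYMS at chr18:657503-657652 on the plus strand.
UHRF1: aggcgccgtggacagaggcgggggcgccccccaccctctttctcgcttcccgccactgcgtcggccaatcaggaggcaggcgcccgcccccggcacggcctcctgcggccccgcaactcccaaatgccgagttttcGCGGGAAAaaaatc
PCNA: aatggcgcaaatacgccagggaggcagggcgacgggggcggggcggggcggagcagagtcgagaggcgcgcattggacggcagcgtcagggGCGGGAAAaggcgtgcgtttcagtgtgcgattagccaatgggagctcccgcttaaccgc
TYMS: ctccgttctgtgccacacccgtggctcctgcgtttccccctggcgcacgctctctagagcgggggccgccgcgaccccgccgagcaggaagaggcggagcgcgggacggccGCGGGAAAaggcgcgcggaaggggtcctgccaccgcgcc
The motif lies 14 bases before the start of UHRF1, 59 before that of PCNA and 39 before that of TYMS. PCNA, the sliding clamp, changed by 1.22 ± 0.16 (adjusted p = 0.000164) and TYMS, which makes thymidylate, by 1.06 ± 0.13 (adjusted p = 9.58e-05). These 2 genes were named for their promoters after their values were seen. A match is a description of the letters and not a bound site.

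Cyclins and repair genes moved in the same direction. Cyclin E2 (CCNE2) read 7.61, 7.68 and 7.91 in control and 9.69, 10.15 and 9.86 in treated cultures, a change of 2.16 ± 0.20 (adjusted p = 5.49e-06). Cyclin E1 (CCNE1) rose by 1.62 ± 0.31 (adjusted p = 0.00218), from 5.06 to 5.79 in control to 6.72 to 7.35 in treated cells. The CDK4 and CDK6 inhibitor CDKN2D rose with them by 1.87 ± 0.29 (adjusted p = 0.000474), from 3.66, 3.00 and 3.95 to 5.71, 5.22 and 5.30. In all, 6 of 16 tested G1 cyclins and CDK inhibitors were called higher and none lower, and 5 to 6 stayed called without 1 array. Among 14 genes of homologous recombination and Fanconi repair 9 were called higher and none lower, with a median change of 1.06, again beside 9.01% higher over all genes tested. The helicase BLM went from 4.24, 3.56 and 4.06 to 6.67, 6.34 and 6.39 (2.51 ± 0.24, adjusted p = 8.57e-06). The nuclease EXO1 changed by 1.83 ± 0.23 (adjusted p = 9.2e-05) and the Fanconi protein FANCI by 1.59 ± 0.14 (adjusted p = 4.56e-06), both without overlap between the groups.

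Of 30 mitosis genes 18 were called higher and none lower, beside 9.01% higher over all genes tested. The median change was 0.73, and all 30 changes were above 0. The cytokinesis scaffold ANLN read 9.40, 9.79 and 9.34 in control and 11.01, 10.36 and 10.99 in treated cultures (1.28 ± 0.19, adjusted p = 0.000364). The spindle motor KIF11 changed by 1.05 ± 0.18 (adjusted p = 0.000896) and the microtubule depolymerase KIF2C by 0.94 ± 0.19 (adjusted p = 0.00326). In each of these 3 genes treated replicate 2 was the lowest treated culture and control replicate 2 the highest control. The list medians had the same order, at 0.92, 0.40 and 0.87 in treated replicates 1 to 3 and -0.11, 0.25 and -0.12 in control replicates 1 to 3. The count of members called fell to 10 without treated replicate 1, and to 11 without treated replicate 3, control replicate 1 or control replicate 3, and it was 20 without treated replicate 2.

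Clustered histone genes, measured here as polyadenylated transcripts, gave the highest list median, 1.58. Of 9 tested members 7 were called higher and none lower, beside 9.01% higher over all genes tested. H2BC4 rose from 2.84, 2.96 and 2.79, near the bottom of the scale, to 6.62, 5.66 and 6.51 (3.40 ± 0.30, adjusted p = 4.56e-06). The linker histone gene H1-2 went from 3.91, 3.47 and 3.57 to 6.87, 6.81 and 6.58 (3.11 ± 0.20, adjusted p = 4.06e-07). The controls of H2BC4 and H1-2 all lay under log2 4, so both passed the filter through other arrays. A fall in them could hardly show, and the count over the 9 members is a description. H2AC6 was well expressed in control at 7.67, 7.68 and 7.71 and reached 10.79, 10.61 and 10.92 (3.08 ± 0.25, adjusted p = 2.02e-06). These genes have near-identical copies in the histone clusters, so a probe set can read more than 1 of them. Without probe sets of the suffixes _x_at and _s_at, which can read related transcripts, 3 members were called.

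**Figure D2:**
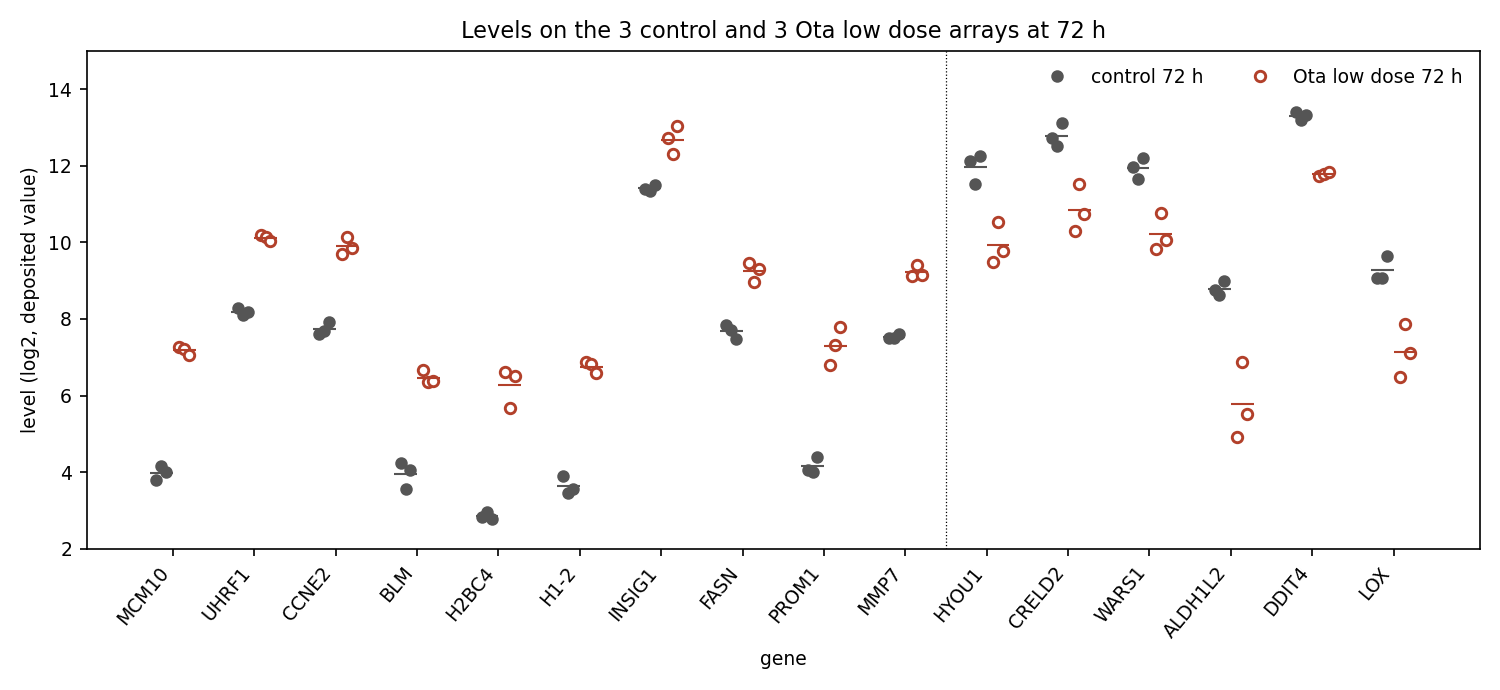
Deposited log2 levels of 16 genes on the 3 control arrays (filled grey points) and the 3 arrays of the Ota low dose (open red points) at 72 h, with a line at each group mean; genes left of the dotted line rose and genes right of it fell. The groups do not overlap for any of the 16 genes, and among the genes that fell treated replicate 2 is the highest treated culture for HYOU1, CRELD2, WARS1, ALDH1L2 and LOX.

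The opposite change was in the ER chaperones. Of 23 tested members 17 were called lower and none higher, with a median change of -0.90, against 7.02% lower over all genes tested. The ER chaperone HYOU1 read 12.11, 11.53 and 12.25 in control and 9.47, 10.52 and 9.78 in treated cultures. It fell by 2.04 on the log2 scale (standard error 0.26, adjusted p = 9.64e-05). CRELD2, a secreted ER stress protein, went from 12.73, 12.51 and 13.12 to 10.29, 11.53 and 10.75 and fell by 1.93 (adjusted p = 0.000189). The disulfide isomerase PDIA4 fell by 1.67 (standard error 0.36, adjusted p = 0.00558), from 12.01, 11.30 and 12.19 to 9.57, 10.96 and 9.97. The groups did not overlap in any of these 3 genes, although control replicate 2 was the lowest control and treated replicate 2 the highest treated culture each time. The list medians on the treated arrays were -1.23, -0.54 and -0.83 for replicates 1 to 3, and on the control arrays 0.02, -0.12 and 0.18. Between 12 and 17 members stayed called when 1 array was left out.

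The ER stress response element, CCAAT and CCACG with 9 bases of any kind between them, is the letter pattern that ATF6 and NF-Y bind. It occurred within 250 bases before the gene start, on either strand, in 0.0806% of all promoters and in 14 of the 9206 tested genes with a promoter (0.152%). Of those 14 genes 10 were called lower, none was called higher and 4 were not called, beside 7.02% lower over all genes tested. Whether neighbouring genes among the 14 share 1 promoter was not checked. The 10 were HSPA5, HSP90B1, CRELD2 and CANX of the chaperone list, and ALG12, EIF2A, ERO1B, FICD, SERP1 and TMEM120A outside it, and the 4 not called were CALR, XBP1, TRIM5 and ZNF17. These genes were named for the pattern, after their values were seen. To show its form, the last 150 bases before the start are given for CRELD2, at chr22:49918484-49918633 on the plus strand, and for HSPA5, at chr9:125241344-125241493 on the minus strand (GRCh38.p14, RefSeq), with the element in capitals.
CRELD2: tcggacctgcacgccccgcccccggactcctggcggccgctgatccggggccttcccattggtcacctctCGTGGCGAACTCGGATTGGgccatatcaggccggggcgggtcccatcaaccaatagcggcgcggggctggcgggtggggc
HSPA5: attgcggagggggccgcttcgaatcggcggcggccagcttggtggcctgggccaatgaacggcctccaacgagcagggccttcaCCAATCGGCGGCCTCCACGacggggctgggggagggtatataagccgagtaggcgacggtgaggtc
HSPA5, the main Hsp70 chaperone of the ER, fell by 0.61 (standard error 0.19, adjusted p = 0.043). ERO1B, an ER oxidase, fell by 1.53 (adjusted p = 0.00288), and HSP90B1, the Hsp90 of the ER, by 1.58 (adjusted p = 7.15e-05). Of 6 motifs searched in all, CCAAT alone was in 19 of 20 chaperone promoters (95%) and in 35.7% of tested genes, and a sterol element was in none of 16 cholesterol genes. The amino acid element TTGCATCA was in 1 of 19 ATF4 targets and 0.402% of tested genes, and the antioxidant element TGACNNNGC in 12.3% of tested genes.

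Of 25 tested ATF4 targets 9 were called lower, 16 were not called and none was higher, with a median change of -0.60 (7.02% lower over all genes tested). The mitochondrial folate enzyme ALDH1L2 read 8.74, 8.62 and 9.00 in control and 4.91, 6.86 and 5.52 in treated cultures, and fell by 3.02 (standard error 0.46, adjusted p = 0.000441). DDIT4, which restrains mTOR signalling, went from 13.39, 13.18 and 13.32 to 11.73, 11.79 and 11.84 and fell by 1.51 (standard error 0.14, adjusted p = 5.11e-06). The stress factor NUPR1 fell by 1.83 (adjusted p = 0.0256), but its groups overlapped, at 5.68, 6.84 and 6.85 against 3.33, 6.25 and 4.31. That call was lost without treated replicate 1, treated replicate 3, control replicate 2 or control replicate 3 (adjusted p up to 0.137). The list was lowest in treated replicate 1, with a median of -1.07 against -0.36 and -0.29 in replicates 2 and 3, and 5 members stayed called without that culture. Among 17 cytosolic tRNA synthetases 9 were called lower and none higher, with a median of -0.51, and 5 were called without treated replicate 1. WARS1, the tryptophan enzyme, went from 11.97, 11.65 and 12.20 to 9.83, 10.76 and 10.06 and fell by 1.72 (standard error 0.21, adjusted p = 9.2e-05). AARS1, the alanine enzyme, fell by 1.14 (adjusted p = 0.00421). YARS1, the tyrosine enzyme, fell by 0.90 (adjusted p = 0.000452), while the other probe set of the gene differed in the other direction.

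**Figure D3:**
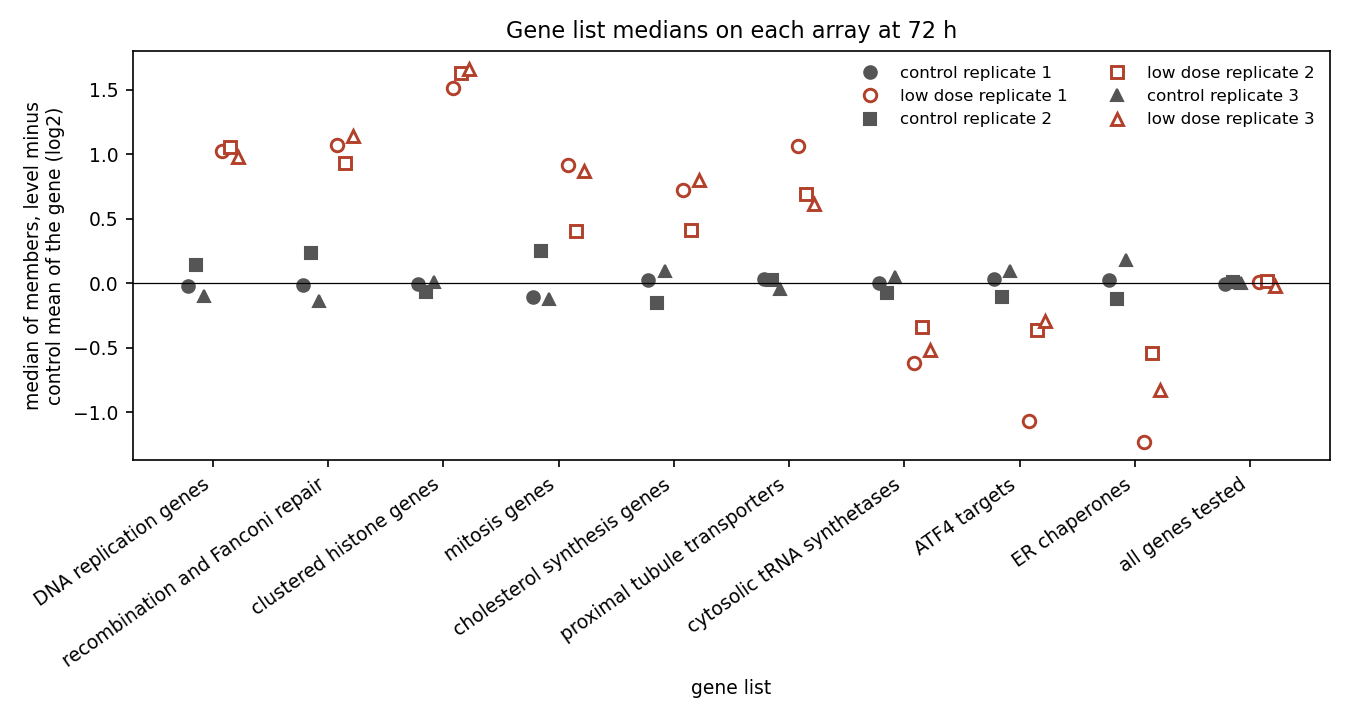
Each point is the median, over the tested members of a gene list, of the log2 level on 1 array less the gene's control mean; filled points are the 3 control arrays and open points the 3 arrays of the Ota low dose at 72 h. For every list but all genes tested, the medians of treated and control arrays do not overlap, replication medians are 0.98 to 1.05 on the treated arrays, and ER chaperone medians spread from -1.23 to -0.54.

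Of 18 tested cholesterol genes 9 were called higher, 9 were not called and none was lower, with a median change of 0.63. Over all genes tested 9.01% were called higher. INSIG1, the ER anchor that senses sterols and is itself a target of SREBP, read 11.39, 11.35 and 11.49 in control and 12.72, 12.29 and 13.03 in treated cultures (1.27 ± 0.21, adjusted p = 0.00072). The acetoacetyl-CoA thiolase ACAT2 changed by 1.27 ± 0.25 (adjusted p = 0.00251) and the farnesyl diphosphate synthase FDPS by 1.23 ± 0.22 (adjusted p = 0.00177), and neither overlapped between groups. Between 6 and 8 members stayed called without 1 array. TM7SF2, a sterol reductase named after its values were seen, stood at -1.06 and was not called (adjusted p = 0.201). Of 9 fatty acid synthesis genes 5 were called higher, 4 were not called and none was lower. FASN, the fatty acid synthase, went from 7.83, 7.70 and 7.48 to 9.45, 8.97 and 9.29 (1.57 ± 0.34, adjusted p = 0.00524). ACSS2 and ACLY, which both supply acetyl-CoA, rose by 1.32 ± 0.21 (adjusted p = 0.000662) and 0.80 ± 0.12 (adjusted p = 0.000307). Treated replicate 2 had the lowest values of all 3 genes among the treated cultures, and 3 members stayed called without treated replicate 1 or treated replicate 3.

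Of 21 proximal tubule transporters and receptors, 8 passed the filter. Of these 5 were called higher and none lower, beside 9.01% higher and 7.02% lower over all genes tested. SLC2A2 passed only through arrays where it was high, so a count over the 8 is a description. The phosphate and urate transporter SLC17A3 read 7.17, 5.93 and 7.54 in control and 9.01, 8.12 and 9.53 in treated cultures, a change of 2.01 ± 0.61 (adjusted p = 0.035). The phosphate transporter SLC34A2 went from 5.72, 4.63 and 5.13 to 6.78, 6.78 and 7.20 (1.76 ± 0.36, adjusted p = 0.00359). The glucose transporter SLC2A2 was at 2.50 to 2.66 in control and at 5.53, 4.79 and 4.05 in treated cells (2.19 ± 0.55, adjusted p = 0.0126). The carnitine transporter SLC22A5 changed by 0.79 ± 0.23 (adjusted p = 0.0269) and the amino acid transporter subunit SLC3A1 by 0.80 ± 0.24 (adjusted p = 0.0318). These calls depended on the arrays in the fit: 1 remained without treated replicate 1, 2 without control replicate 1, and 3 without treated replicate 3 or control replicate 3. With only these 6 arrays fitted 6 members were called higher, and without the high dose arrays 5. Over all settings other than leaving out 1 array the count was 2 to 6. Of 9 brush border genes the ectonucleotidase NT5E alone was called (11.1%, beside 16% over all genes tested). NT5E read 6.87, 7.41 and 7.49 in control and 8.53, 8.76 and 8.58 in treated cells (1.36 ± 0.26, adjusted p = 0.00241). Of 8 tested identity genes the keratin KRT18 alone was called (12.5%, also under the share of all genes). It fell by 0.84 (adjusted p = 0.014), and the call was lost without treated replicate 1 or control replicate 3 (adjusted p up to 0.0696).

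Markers of tubular injury gave 4 calls higher and 1 lower among 16, beside 9.01% higher and 7.02% lower over all genes tested. PROM1, the membrane glycoprotein CD133, read 4.05, 4.0 and 4.40 in control and 6.79, 7.32 and 7.79 in treated cultures (3.15 ± 0.44, adjusted p = 0.000231). The matrix protease MMP7 went from 7.5, 7.5 and 7.62 to 9.13, 9.41 and 9.14 (1.69 ± 0.18, adjusted p = 1.97e-05). HAVCR1, the injury marker KIM-1, went from 10.18, 9.69 and 9.75 to 11.52, 11.47 and 11.59 (1.65 ± 0.34, adjusted p = 0.00415). No treated culture overlapped the controls for these 3 genes. The plasminogen activator urokinase (PLAU) rose from 9.21, 8.90 and 10.02 to 10.96, 10.81 and 11.44 (1.69 ± 0.26, adjusted p = 0.000408) and the protease inhibitor SERPINE2 by 1.37 ± 0.21 (adjusted p = 0.000472). The urokinase receptor PLAUR changed by 0.73 ± 0.24 (adjusted p = 0.049), and that call was lost without treated replicate 1, 2 or 3 or control replicate 1 (adjusted p up to 0.232). In all, 4 of 6 plasminogen genes were called higher and none lower, and 2 were called without treated replicate 1, treated replicate 3 or control replicate 1.

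Junction, keratin and matrix genes moved singly and in both directions. Of 16 claudin and junction genes 1 was called higher and 4 lower (31.2% called, beside 16% over all genes tested). Of 13 keratin and envelope genes 23.1% were called. Of 20 matrix genes 15% were called, a share no higher than that of all genes. CLDN2, the claudin of the leaky proximal tubule, read 9.24, 9.00 and 8.71 in control and 10.46, 10.26 and 10.24 in treated cultures (1.34 ± 0.30, adjusted p = 0.00644), whereas the sealing claudin CLDN3 fell by 1.12 (standard error 0.17, adjusted p = 0.000337). E-cadherin (CDH1) went from 9.10, 8.75 and 9.31 to 8.11, 7.73 and 8.06 and fell by 1.08 (adjusted p = 0.0171). Its call was lost without treated replicate 2, control replicate 1 or control replicate 3 (adjusted p up to 0.0813), and the list kept 1 to 3 calls lower without 1 array. The keratin KRT20 rose from 8.21, 7.48 and 9.26 to 10.65, 10.16 and 11.56 (2.47 ± 0.56, adjusted p = 0.0071), SFN, the 14-3-3 protein of epithelia, rose by 0.86 ± 0.18 (adjusted p = 0.00491) and the envelope protein PPL fell by 1.11 (adjusted p = 0.00273). The collagen cross-linking enzyme LOX went from 9.07, 9.08 and 9.65 to 6.47, 7.86 and 7.11 and fell by 2.12 (standard error 0.31, adjusted p = 0.000293). It was the only one of 20 matrix genes called lower. LAMC1 and SMAD7 were called higher, at 0.39 ± 0.11 (adjusted p = 0.0274) and 0.68 ± 0.19 (adjusted p = 0.023), and both calls were lost without any 1 of treated replicates 1 and 3 and control replicates 2 and 3, that of SMAD7 also without control replicate 1 (adjusted p up to 0.128 for LAMC1 and 0.0991 for SMAD7).

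Signalling and inflammatory lists held 12.5% to 44.4% called members, beside 16% over all genes. The lowest share was that of the 8 SOCS and STAT feedback genes, of which 1 was called higher and none lower. Of 18 AP-1 and immediate early genes 4 were called higher and none lower, led by KLF10 (1.42 ± 0.23, adjusted p = 0.000584), FOSL2 (1.19 ± 0.19, adjusted p = 0.00056) and EGR1 (0.97 ± 0.22, adjusted p = 0.0076). With all arrays of the series in the fit, 1 member of that list was called higher. Of 15 ERK output genes 4 were called higher, and 0 to 2 of them stayed called without 1 array. The 16 cytokine and chemokine genes gave 3 calls higher and 1 lower. IL1B, at 3.26, 3.75 and 3.26 in control and 4.69, 5.22 and 4.73 in treated cells, rose by 1.46 ± 0.24 (adjusted p = 0.000808), and the adhesion molecule ICAM1 rose by 0.92 ± 0.19 (adjusted p = 0.00447), while the chemokine CXCL3 fell by 1.24 (adjusted p = 0.00441). The EGF ligand BTC fell by 1.65 (adjusted p = 0.00233) and the receptor ERBB3 rose by 0.98 ± 0.19 (adjusted p = 0.00249). Of 17 interferon-induced genes OAS3 was called higher (1.26 ± 0.26, adjusted p = 0.00393). ISG15 fell by 1.10 (adjusted p = 0.0019) and IFI35 by 1.60 (adjusted p = 0.0259), but the IFI35 call was lost without treated replicate 3, control replicate 1 or control replicate 3 (adjusted p up to 0.133, change down to -1.03).

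Metabolic and xenobiotic lists were mixed, with 12.5% (aryl hydrocarbon receptor) to 37.5% (metallothionein and zinc genes) of members called, beside 16% over all genes tested. Of 28 glycolysis and hypoxia genes 8 were called higher and 1 lower, with a median change of 0.28. The regulators of glycolytic flux PFKFB3 and PFKFB4 rose by 1.16 ± 0.25 (adjusted p = 0.00549) and 1.10 ± 0.27 (adjusted p = 0.0125), and the carbonic anhydrase CA12 by 1.10 ± 0.18 (adjusted p = 0.000857). Without control replicate 3 the list held 4 calls higher, and without treated replicate 3 it held 5. Among 21 NRF2 targets 2 were called higher and 2 lower, with a median of 0.02. The quinone reductase NQO1 read 9.60, 9.52 and 9.78 in control and 8.39, 8.38 and 8.44 in treated cultures and fell by 1.23 (standard error 0.39, adjusted p = 0.0423). That call was lost without any 1 of the 6 arrays (adjusted p up to 0.129), although no treated culture reached the controls. Of 8 metallothionein and zinc genes 3 were called lower and none higher, each by 0.53 to 0.59, and none was called without treated replicate 3 or control replicate 1. The cytochrome CYP1B1 was the only one of 8 genes of the aryl hydrocarbon receptor called, at 1.06 ± 0.18 (adjusted p = 0.00125).

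General stress programmes had called members in both directions, at shares near or somewhat above the 16% of all genes for apoptosis (25%), proteasome (19%) and heat shock genes (18.8%). The median change of 21 ribosome biogenesis genes was -0.04, and 1 of 20 p53 targets was called in each direction. CDKN1A, the CDK inhibitor p21, read 9.10, 9.11 and 9.06 in control and 9.68, 9.79 and 10.10 in treated cells (0.77 ± 0.19, adjusted p = 0.0124), and TP53I3 fell by 1.31 (standard error 0.26, adjusted p = 0.00258). The CDKN1A call was lost without treated replicate 3 (adjusted p = 0.0673). Of 16 apoptosis regulators 2 were called higher, the death ligand TNFSF10 (1.53 ± 0.24, adjusted p = 0.000466) and the BH3 protein BID (0.78 ± 0.12, adjusted p = 0.000424), and 2 were called lower. Heat shock genes gave 2 calls higher and 1 lower among 16, proteasome genes 2 and 2 among 21, respiratory chain subunits 3 and none among 22, and lysosome and autophagy genes none and 2 among 23.

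**Figure D4:**
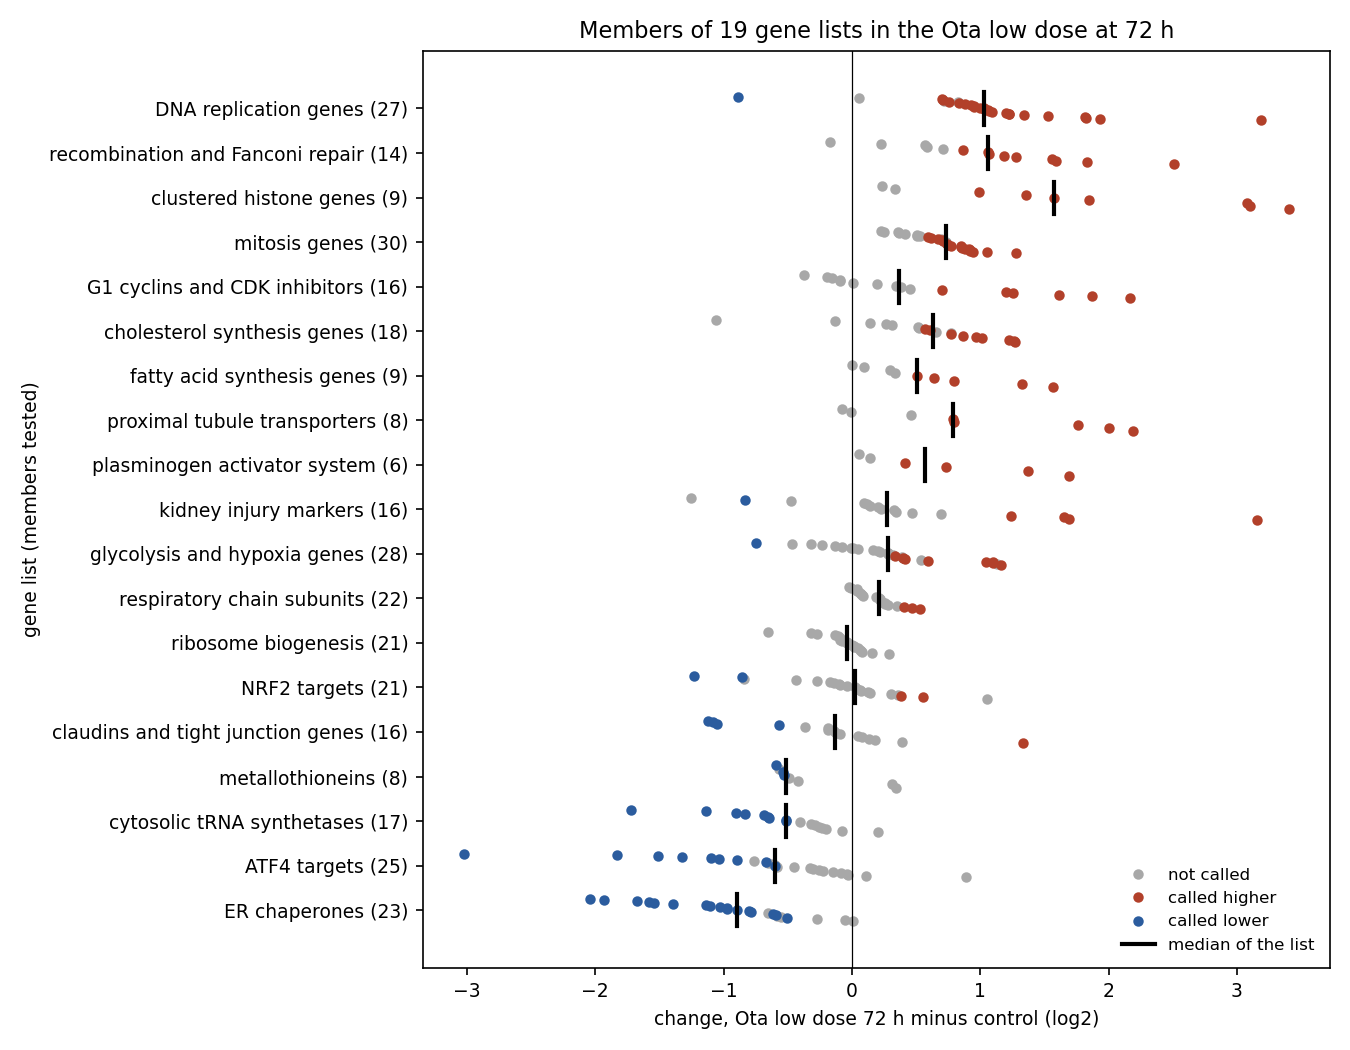
Each point is a tested member of 1 of 19 gene lists, placed by its log2 change in the Ota low dose at 72 h against control; red and blue points were called higher and lower, grey points were not called, and the black bar is the list median. Replication, repair, histone and mitosis genes lie mostly above 0, and ER chaperones, ATF4 targets and tRNA synthetases mostly below, with medians from 1.58 (histones) to -0.90 (ER chaperones).

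Among called genes whose treated and control cultures did not overlap, the largest single changes lay partly outside these lists. MGC16275 rose from 5.57, 6.67 and 5.98 to 10.36, 10.22 and 10.35 (4.24 ± 0.31, adjusted p = 1.34e-06). The reductase DHRS2 went from 3.33, 3.12 and 3.39 to 6.93, 6.60 and 6.85 (3.51 ± 0.46, adjusted p = 0.00015). The adhesion receptor ADGRF1 rose by 2.82 ± 0.62 (adjusted p = 0.00596) and the non-coding genes GIRGL and EFCAB13-DT by 3.38 ± 0.84 (adjusted p = 0.0122) and 2.81 ± 0.34 (adjusted p = 7.95e-05), the GIRGL call being lost without treated replicate 3 (adjusted p = 0.0539). The filament protein gene IFFO1 went from 6.36, 7.12 and 6.89 to 2.40, 2.65 and 2.36 and fell by 4.32 on the log2 scale (standard error 0.20, adjusted p = 5.74e-09). The treated values of IFFO1 and the control values of ADGRF1 (2.46 to 2.50) and GIRGL (2.22 to 2.26) lie near the bottom of the scale, so the sizes of these differences have no firm upper end and are not ranked. The lysosomal membrane protein LAMP3 went from 5.95, 5.70 and 6.58 to 2.37, 4.23 and 2.33 and fell by 3.10 (standard error 0.48, adjusted p = 0.000472). Its treated replicates 1 and 3 also lie near the bottom of the scale, so the size of this fall has no firm upper end. Treated replicate 2 again lay nearest the controls. The glycogen synthase GYS1 fell by 2.64 (adjusted p = 3.74e-05), the JmjC family gene JMJD4 by 2.70 (adjusted p = 0.000111), the kinase gene ULK4 by 2.43 (adjusted p = 0.00026), and NBR2, NEURL2 and LINC00472 by 2.75, 2.61 and 2.42. The ER retrieval receptor KDELR3 fell by 2.55 (adjusted p = 0.0349). That call was lost without any 1 of the 6 arrays (adjusted p up to 0.104), and 1 of its 3 probe sets above the filter differed in the other direction. Over the other settings of the fit the adjusted p of KDELR3 ran from 4.38e-07 to 0.0913. In 52 of the genes called higher all 3 controls were under log2 4, and in 36 called lower all 3 treated arrays were.

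The same dose at 24 h, which has control cultures of its own, gave 1527 calls (13.7%), 414 higher (3.72%) and 1113 lower (9.99%). Of the genes called at 72 h 519 were also called at 24 h, which is 29.1% of the 72 h calls and 34% of the 24 h calls. In 161 of these both times were higher, in 309 both were lower, in 44 the gene was higher at 72 h and lower at 24 h, and in 5 it was the reverse. The response itself differed between the times for 702 genes (6.3%), 531 of them with the more positive change at 72 h (4.77%) and 171 with the more negative (1.54%). Without 1 of the 12 arrays the number was 355 to 605, lowest without treated replicate 1 of 72 h.

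The time difference was densest among replication genes, of which 23 of 27 differed and all 23 were more positive at 72 h. At 24 h 6 of these 27 were called lower, with a median of -0.35. MCM10 changed by -0.48 at 24 h and 3.19 at 72 h, a difference of 3.67 (adjusted p = 2.4e-07). The polymerase alpha subunit POLA2 fell by 3.28 at 24 h and stood at 0.11 ± 0.35 at 72 h, when its cultures overlapped at 5.79, 6.42 and 6.08 in control and 5.95, 6.43 and 6.25 in treated cells. Its difference between the times was 3.39 (adjusted p = 0.00101). The sialyltransferase ST6GALNAC5 changed from -1.52 at 24 h to 2.15 at 72 h, also a difference of 3.67 (adjusted p = 0.000529). Of 18 cholesterol genes 7 differed, of 14 repair genes 9, and of 30 mitosis genes 7, all more positive at 72 h; with replicate number as a block the mitosis count was 4.

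The ER chaperones showed the converse. Their median was 0.07 at 24 h, and 10 of 23 differed between the times, all more negative at 72 h. HYOU1 changed by 0.04 at 24 h, and its difference was -2.08 (adjusted p = 0.00348). LAMP3 changed by 0.02 at 24 h and differed by -3.12 (adjusted p = 0.013), and ALDH1L2 by -0.24 with a difference of -2.78 (adjusted p = 0.0203). Other changes were already present at 24 h. IFFO1 stood at -4.02 and MGC16275 at 4.16 at that time, GYS1 at -3.0 and DDIT4 at -1.65, and none of these 4 differed between the times. The non-coding gene LINC01963 was higher at both times, at 4.54 and 1.78, and the difference was -2.76 (adjusted p = 0.00195). Histone genes divided in this respect: H2AC6 fell back from 5.40 to 3.08, H1-2 went from 0.42 to 3.11, and H2BC4 stood at 4.02 and 3.40.

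The high dose at 72 h gave 7044 calls against the same control arrays (63.2%), 2821 higher (25.3%) and 4223 lower (37.9%). Since the controls are shared, agreement between the doses is not independent, and values are set side by side. MCM10 stood at 3.19 in the low and 4.07 in the high dose, HYOU1 at -2.04 and -3.12, H2BC4 at 3.40 and 7.06, and DDIT4 at -1.51 and -3.80. Set directly against each other, the doses differed in 6441 genes (57.8%), 2325 of them higher (20.9%) and 4116 lower (37%) in the high dose. All 9 histone genes were higher in the high than in the low dose. Among 27 replication genes 2 were higher and 10 lower in the high dose, so 44.4% differed, under the 57.8% of all genes tested. Their medians against control were 1.03 in the low and 0.79 in the high dose.

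All 8 tested proximal tubule transporters and receptors differed between the doses, 6 of them lower in the high dose. Over all genes tested 57.8% differed and 37% were lower. SLC16A9 read 2.27 to 2.29 in low dose cells and passed the filter through other arrays, so a fall could hardly show. SLC2A2 passed only through arrays where it was high, so the count over the 8 is a description. SLC17A3 stood at 2.01 in the low and -3.41 in the high dose, SLC34A2 at 1.76 and -1.01, and SLC3A1 at 0.80 and -3.30. KRT20 stood at 2.47 and -3.08, CLDN2 at 1.34 and -2.26, TNFSF10 at 1.53 and -0.97, and EGR1 at 0.97 and -2.27. Some genes with large dose differences were near the bottom of the scale in the low dose and passed the filter through other arrays. AOC3, an amine oxidase, read 2.56 to 2.62 in low dose cells, MSH4 2.26 on all 3 arrays and ZNF513 2.22 to 2.34, so their differences of 6.93, 5.70 and 5.70 depend on that bottom. TMEM37, SYNE2 and GPR160 were lower in the high dose by 6.34, 6.00 and 5.98, and in the low dose they stood at 0.17, -0.07 and -0.47 against control, none of them called.

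**Figure D5:**
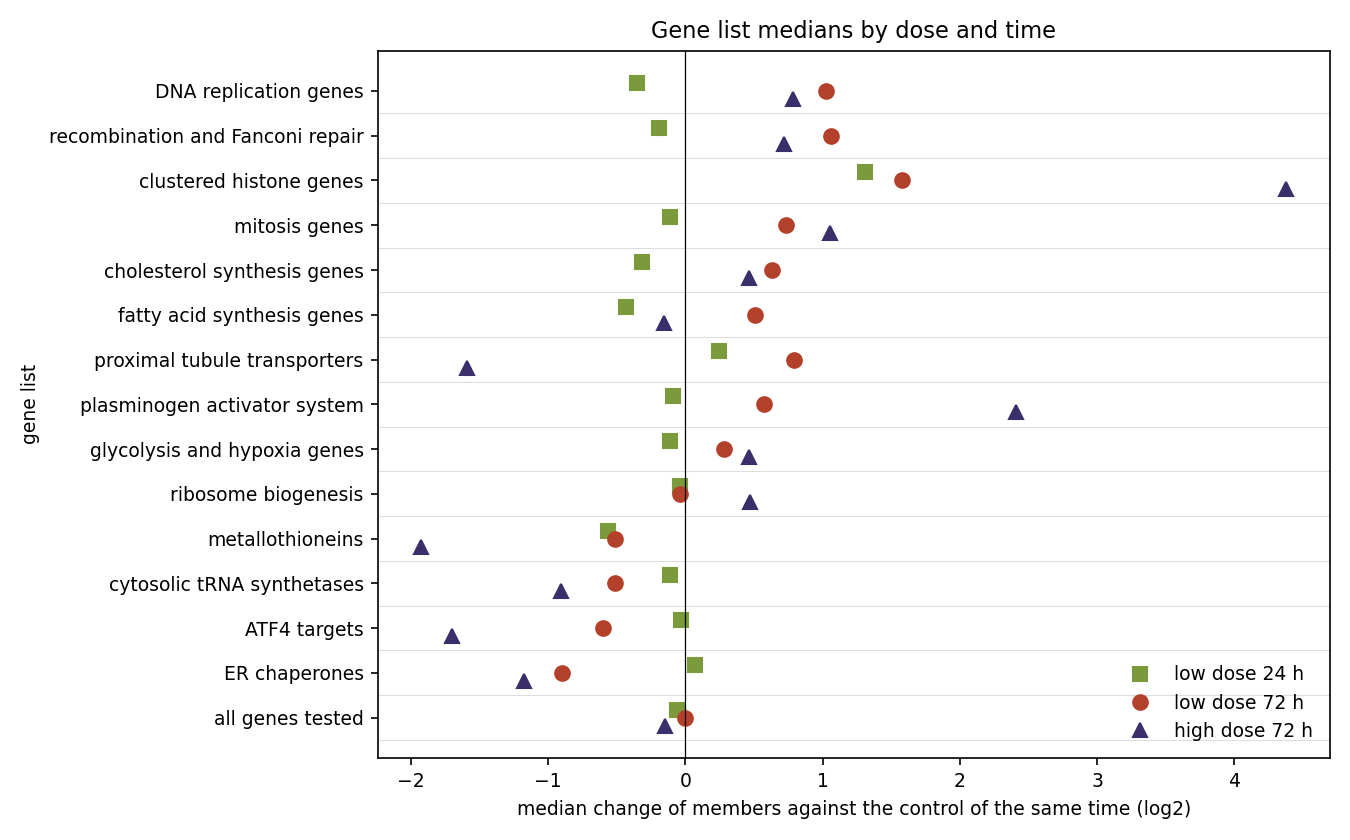
Median log2 change of the tested members of 14 gene lists, and of all genes tested, against the control of the same time, for the Ota low dose at 24 h (squares) and 72 h (circles) and the high dose at 72 h (triangles, same controls as the circles). Replication medians are -0.35, 1.03 and 0.79 in that order, ER chaperone medians 0.07, -0.90 and -1.18, and proximal tubule transporter medians 0.24, 0.79 and -1.59.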

How the data were processed

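Biotin-labelled cRNA from total RNA of HK-2 cells was hybridised to Affymetrix arrays. The deposited values are log2 levels that the authors made with GCRMA over all arrays together, per the submitters' processing notes; the number of arrays limits the precision. Of 54675 probe sets, 41091 carried 1 gene symbol in the platform annotation. Where a gene had several, the probe set brightest on average over the whole series stood for it, which gave 19775 genes. A gene was tested where log2 exceeded 4 on at least 3 of the 18 Ota arrays (11138 genes). Group means were fitted to the 18 arrays with limma 3.58.1 (lmFit, eBayes, R 4.3.3; 12 residual degrees of freedom), p-values were adjusted by Benjamini-Hochberg over all tested genes, and adjusted p under 0.05 was a call. The fit was tested on simulated data. Named genes were the 10 largest called rises and falls, up to 3 called members of each list with the largest changes (or, with none called, the tested member with the largest), the extremes of the time and dose comparisons and the cell type markers; others are named in the text as chosen after their values were seen. The comparison and the lists were chosen with earlier results of these data known. Replicate numbers were checked for pairing: deviations of same-numbered low dose and control arrays correlated at 0.0782, 0.0771 and 0.241 at 72 h, which does not pair them, and at 0.389, 0.315 and 0.409 at 24 h, which does. The 24 h and time results were therefore also fitted with replicate number as a block, and the blocked value is given where it ends a call or moves a count by over 1.5 times. Alternatives covered filters, probe set choice, normalization, the arrays in the fit, a replicate block and leaving out single arrays.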

Additional observations from a re-analysis of the deposited data

Results flagged for a closer look

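The low dose response differed between 72 and 24 h, by the test of the difference itself in limma, for 702 genes. Among the genes named for their size, the change at 72 h minus that at 24 h was 3.67 for MCM10, 3.67 for ST6GALNAC5, 3.39 for POLA2, 2.69 for H1-2 and 2.32 for PROM1. It was -3.12 for LAMP3, -2.78 for ALDH1L2, -2.76 for LINC01963, -2.40 for NBR2, -2.32 for H2AC6 and -2.03 for NEURL2. The size for LAMP3 depends on treated values near the bottom of the scale at 72 h. POLA2 was called only at 24 h, H2AC6 and LINC01963 were called higher at both times, and MCM10 was called lower at 24 h and higher at 72 h. Control cultures differ between the times, so each response is relative to its own 3 controls.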

How the results depend on the processing

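For the low dose, the choice of arrays that estimate the spread moved the counts most. At 72 h the low dose gave 3542 calls from its 6 arrays alone and 3336 without the high dose arrays (chosen after seeing the data), against 1785, and 1066 to 1429 without 1 array. At 24 h the low dose gave 3179 calls without the high dose arrays, 2312 from its own arrays and 843 to 1308 without 1 array, against 1527. The time difference gave 2139 calls in both of these fits and 355 to 605 without 1 array, against 702. For the high dose at 72 h and for high against low the lowest counts, 5232 and 4754 against 7044 and 6441, came without probe sets of suffix _x_at or _s_at. With replicate number as a block, which shares only a number at 72 h and pairs the arrays at 24 h, the counts were 2075 at 72 h, 1734 at 24 h and 862 for the time difference; at 24 h the block ended the call of ACSS2 and in the time difference that of SDHA (adjusted p = 0.0518 and 0.0522), and no other call of a named gene in these comparisons. Calls at 72 h were 56.2% higher and 48.2% higher after quantile normalization. Calls at 24 h were 27.1% higher, 44.3% at the same upper quartile, 44.4% without probe sets of suffix _x_at or _s_at and 37.7% with the mean of probe sets. The time difference had 75.6% positive calls, 63.1% at the same upper quartile and 63.7% after quantile normalization. Without those suffixes the changes of YARS1 (0.24), HSPA4 (0.87), HEXA (0.98), PLAUR (-0.037), ABCC5 (-0.12) and MGST1 (-0.028) reversed, and with the mean of probe sets those of PSMA5 (0.69) and HEXA (0.13). Of 119 named calls, fitting all arrays of the series ended 27 and leaving out 1 array ended 14 to 32. Causes were not tested.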
